A study of Mus musculus with 15 samples.

Results

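The genes described here encode the fast and slow protein isoforms of the sarcomere, the contractile unit of striated muscle: troponins, tropomyosins, myosin light chains, alpha-actinins and the proteins that measure, cap and anchor the filaments, without the myosin heavy chains. They were chosen by gene symbol, 38 of the 47643 symbols in a table of transcript abundance, and all 38 had values and passed the filter on low values. The RNA came from tibialis anterior, a muscle at the front of the shin, of female C57BL6/J mice, sampled 49 days after implantation according to the study's design. Their labelled age of 7 weeks may be that at implantation or at sampling, and a line in the extraction protocol gives another time, 3 weeks, after injection of another tumour line (LLC). In the melanoma plus lisinopril group (4 mice) the animals carried a melanoma xenograft that brings on cachexia, the wasting of muscle and fat, and were given lisinopril, an inhibitor of angiotensin-converting enzyme. The melanoma group (4) carried the tumour without the drug, the lisinopril group (3) was mock-injected and given the drug, and the control group (4) was mock-injected only. The comparisons ask what the tumour changed, with and without the drug, and what the drug changed, with and without the tumour. The tumour cell line and the dose of lisinopril were not given in the sources used here, and nothing in them says that numbered mice of different groups belong together.

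In the sarcomere, thin filaments of actin slide along thick filaments of myosin. Calcium binds troponin C, which relieves the block that troponin I and tropomyosin place on actin, while troponin T ties the complex to tropomyosin. Most of these proteins come in a fast and a slow form encoded by separate genes, and a fibre makes mainly 1 set. The mouse tibialis anterior is known as a fast muscle, in which few fibres are slow. Levels are given as TPM, the authors' measure of transcript abundance, which is scaled by transcript length, so that the levels of different genes can be set side by side. Whole muscle was sequenced, so fewer fibres of a type and less RNA per fibre cannot be told apart.

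Each library summed to the same total, which keeps no depth, so the precision of single values from counting is unknown. The mitochondrial genome took 28.5% to 46.9% of TPM in tumour-bearing muscles and 40.8% to 52.8% in tumour-free ones. The 38 genes took 7.52% (melanoma 2) to 14.8% (melanoma 1). Of the TPM outside the mitochondrial genome they took 12.0% to 22.2% (median 18.1%) in tumour-bearing muscles and 16.4% to 22.3% (median 21.4%) in tumour-free ones. Libraries melanoma 2 and control 2 stood apart, with mean correlations of 0.938 and 0.937 to their own groups, against at least 0.965 for the other libraries. The summed red blood cell markers reached 23990 TPM in control 2 and at most 4212 TPM elsewhere. The summed leukocyte markers were highest in melanoma 2 (78.3 TPM) and control 2 (49.5 TPM). In melanoma 2 most of that sum was Cd68 (75.9 TPM). Its Ptprc (1.11 TPM), Adgre1 (1.13 TPM), Cd3e and Cd79a lay within the range of the other libraries. In control 2 Ptprc (7.94 TPM), Adgre1 (5.95 TPM), Cd3e and Cd79a each had their highest value, but Cd68 did not (15.2 TPM). The 5 skeletal fibre markers (Ckm, Myh4, Acta1, Ttn, Pvalb) passed the filter and summed to 30156 to 89641 TPM (median 60520.0) in tumour-bearing muscles and 40547 to 76803 TPM (median 62479) in tumour-free ones.

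The average tumour effect sets the 8 tumour-bearing muscles against the 7 tumour-free ones, as the mean of the tumour effects with and without lisinopril. Desmin, titin, the kinase of the myosin light chain, nebulin and myotilin rose, and myosin binding protein H fell. These were 6 of the 38 genes (15.8%) at an adjusted p below 0.05, while 18.0% of all 11923 genes tested passed, so the sarcomere genes were called about as often as genes in general. By direction 5 were higher (background 14.5%) and 1 was lower (background 3.45%). The median log2 fold change was 0.21 over the 38 genes and 0.17 over all genes, with 24 of the 38 positive and 14 negative. The tests were made by limma on log2(TPM + 1) over all 15 libraries, with Benjamini-Hochberg adjustment over all genes, and the fold changes are on that scale. The median over all genes depended on the scaling, at -0.0054 with median-ratio rescaling and 0.056 with TPM recomputed without the mitochondrial genome. Relative to the median of 0.17, desmin changed by 0.90, titin by 0.49, Mylk2 by 0.70, nebulin by 0.33, myotilin by 0.32 and Mybph by -1.88. Under both of those scalings the 6 calls among the 38 genes split into 3 higher and 3 lower, because nebulin and myotilin were not called and Myl1 and Lmod3 were called lower. Of the 38 genes, 33 kept the sign of their change under every scaling tried and 5 did not (Tnnt3, Tnni2, Myl3, Tmod4, Myom3).

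**Figure D1:**
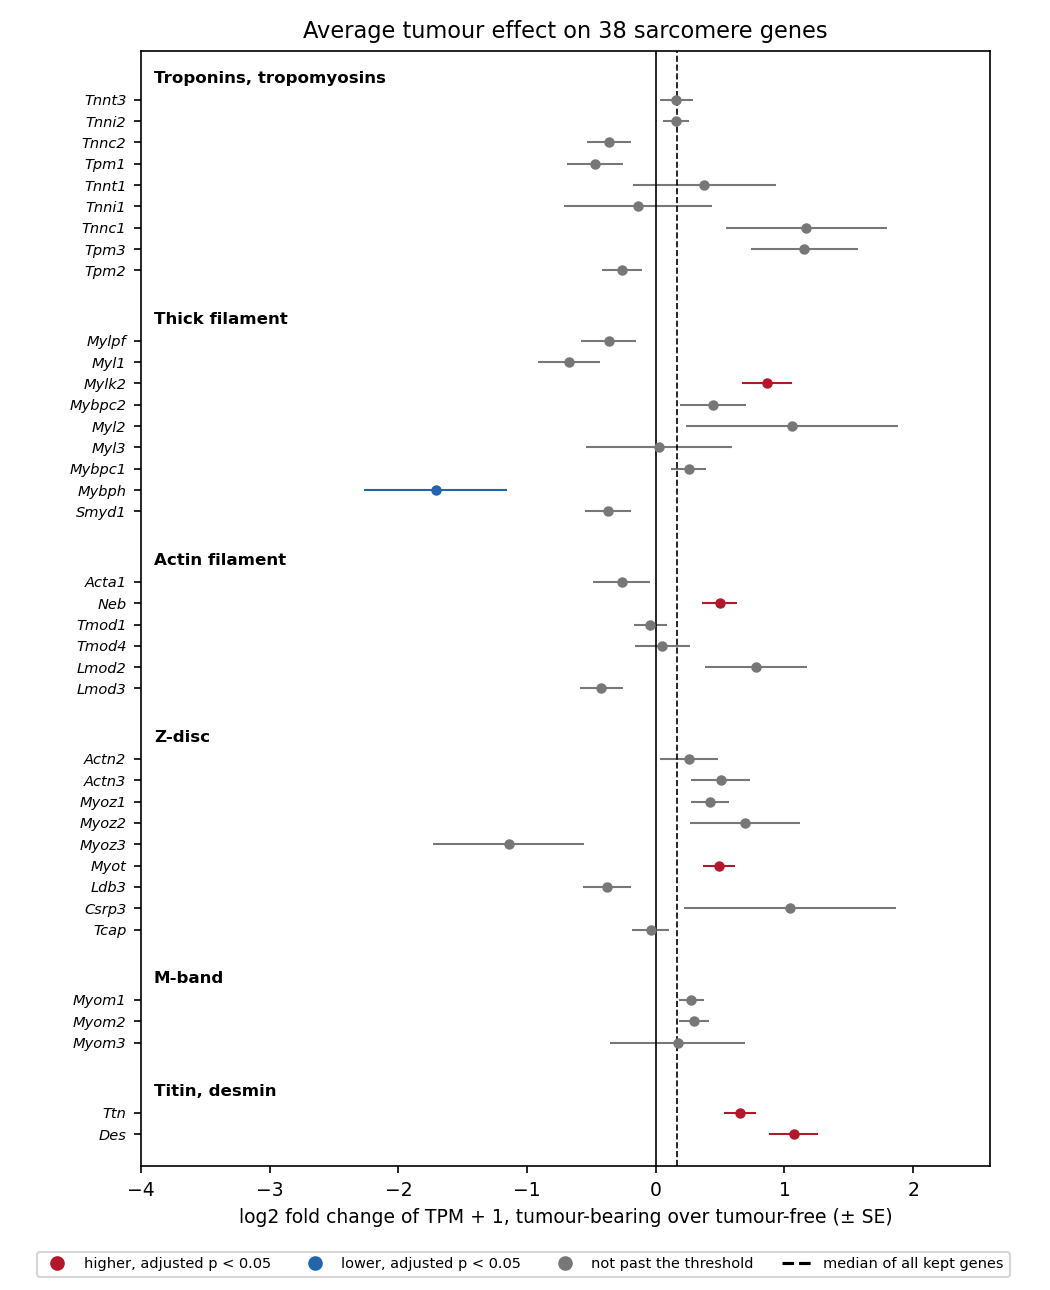
Log2 fold change of TPM + 1, tumour-bearing over tumour-free muscles, for the 38 genes in groups by role, with standard errors as bars. Red points rose and the blue point fell at an adjusted p below 0.05, grey points did not pass, and the dashed line is the median of all genes tested (0.17); desmin lies farthest right among the red points, at 1.07, and Mybph is at -1.71.

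Desmin, the intermediate filament that links neighbouring myofibrils at their Z-discs, was the only 1 of the 38 genes whose tumour-bearing and tumour-free values did not overlap (2.63%, background 2.33%). Des (chromosome 1, 75360329 to 75368579 of the mm10 build) had 2678, 2128, 2159 and 4798 TPM in the melanoma plus lisinopril muscles and 3194, 3607, 2171 and 2595 TPM in the melanoma muscles, against 1137, 1553 and 1019 TPM in the lisinopril muscles and 1988, 1294, 1176 and 1510.0 TPM in the control muscles. The lowest tumour-bearing muscle, melanoma plus lisinopril 2, lay above the highest tumour-free muscle, control 1. The means were 2916 ± 926 TPM in tumour-bearing muscles and 1382 ± 330.4 TPM in tumour-free ones (SD, n = 8 and 7), a 2.10-fold difference (log2 fold change 1.07 ± 0.19, adjusted p = 0.00410). Desmin is also made by smooth muscle of vessel walls. Of 5 smooth muscle markers 4 passed the filter (Cnn1 did not, and none was at 0). Of these 1 rose (background 14.5%), Tagln (log2 fold change 0.79 ± 0.19, adjusted p = 0.0145). The changes of the 4 split into 2 positive and 2 negative, with a median of -0.049. With median-ratio rescaling 0 were called higher and 1 lower. The 5 together summed to 75.2 to 122 TPM (median 96.7) in tumour-bearing muscles and 79.0 to 153 TPM (median 87.7) in tumour-free ones, and their part in the change of Des was not tested.

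Titin, the spring that runs from the Z-disc to the M-band, was higher in the tumour-bearing muscles with 1 exception. Ttn (chromosome 2, 76703980 to 76982547) had 204, 318, 238 and 313 TPM in the melanoma plus lisinopril muscles and 248, 310.2, 274 and 266 TPM in the melanoma muscles, against 122, 149 and 187 TPM in the lisinopril muscles and 196, 193, 169.8 and 214 TPM in the control muscles. All melanoma values lay above all tumour-free values, and melanoma plus lisinopril 1, at 204 TPM, lay between the tumour-free muscles. The means were 271 ± 40.7 TPM in tumour-bearing muscles and 176 ± 31.5 TPM in tumour-free ones (SD, n = 8 and 7), with a log2 fold change 0.66 ± 0.12, adjusted p = 0.00504. Des, Ttn and Mylk2 passed the threshold under each of the 24 alternatives run for this comparison.

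Mylk2, the skeletal muscle kinase that phosphorylates the regulatory light chain of fast myosin, rose by 0.87 on the log2 scale. It had 1337, 751, 1195 and 1886 TPM in the melanoma plus lisinopril muscles and 1386, 1340.2, 1021 and 972 TPM in the melanoma muscles, against 761, 604 and 861 TPM in the lisinopril muscles and 420.4, 833, 519 and 642 TPM in the control muscles. Melanoma plus lisinopril 2 was the exception among the tumour-bearing muscles, and the other 7 of 8 lay above every tumour-free muscle (log2 fold change 0.87 ± 0.19, adjusted p = 0.0113). Nebulin, which runs along the thin filament and is tied to its length, had a smaller difference (log2 fold change 0.50 ± 0.13, adjusted p = 0.0250). Neb (chromosome 2, 52136647 to 52378474) had 515, 768, 627 and 746 TPM in the melanoma plus lisinopril muscles and 619, 703, 773 and 612 TPM in the melanoma muscles, against 325, 418 and 563 TPM in the lisinopril muscles and 556, 452, 486 and 611 TPM in the control muscles. Here melanoma plus lisinopril 1 lay within the tumour-free values and the other 7 lay above them, the nearest by little. Myotilin, which binds alpha-actinin and filamin at the Z-disc, differed by as much (log2 fold change 0.49 ± 0.12, adjusted p = 0.0201). Myot had 1589.9, 1319, 920.2 and 1630.3 TPM in the melanoma plus lisinopril muscles and 1389.6, 1165, 1012 and 1164 TPM in the melanoma muscles, against 869, 928 and 771 TPM in the lisinopril muscles and 964, 896, 939.9 and 919 TPM in the control muscles. Melanoma plus lisinopril 3 lay inside the tumour-free range, which was narrow. Nebulin and myotilin missed the threshold with median-ratio rescaling (Neb 0.28, adjusted p = 0.143, and Myot 0.28, adjusted p = 0.161) and without the mitochondrial genome (Neb 0.36, adjusted p = 0.0671, and Myot 0.36, adjusted p = 0.0576). Neb also missed it without lisinopril 1 (0.40, adjusted p = 0.0779) or lisinopril 2 (0.49, adjusted p = 0.0585), and Myot without lisinopril 1 (0.50, adjusted p = 0.0516) or lisinopril 3 (0.45, adjusted p = 0.0506).

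Mybph, a relative of the myosin binding proteins C that sits on the thick filament, was the 1 member that fell. Mybph (chromosome 1, 134193448 to 134201232) had 10.9, 59.2, 22.3 and 5.19 TPM in the melanoma plus lisinopril muscles and 73.9, 15.2, 27.1 and 5.16 TPM in the melanoma muscles, against 95.1, 56.3 and 86.3 TPM in the lisinopril muscles and 123, 24.6, 29.2 and 77.4 TPM in the control muscles. Both libraries numbered 4 of the tumour-bearing groups were near 5 TPM, while melanoma 1, melanoma 3 and melanoma plus lisinopril 2 lay among the tumour-free values, so the groups overlapped. The means were 27.4 ± 25.6 TPM in tumour-bearing muscles and 70.3 ± 35.8 TPM in tumour-free ones (SD, n = 8 and 7), with a log2 fold change -1.71 ± 0.56, adjusted p = 0.0466. This call was the least stable: it was lost without any 1 of 12 of the 15 libraries, with adjusted p between 0.0506 (without melanoma plus lisinopril 3) and 0.106 (without lisinopril 1), and held without control 2, melanoma 1 or melanoma plus lisinopril 2. It was also lost with no filter on low values (adjusted p = 0.0953) and with the replicate number as a block. Its log2 fold change ran from -2.03 to -1.41 over all 24 alternatives.

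**Figure D2:**
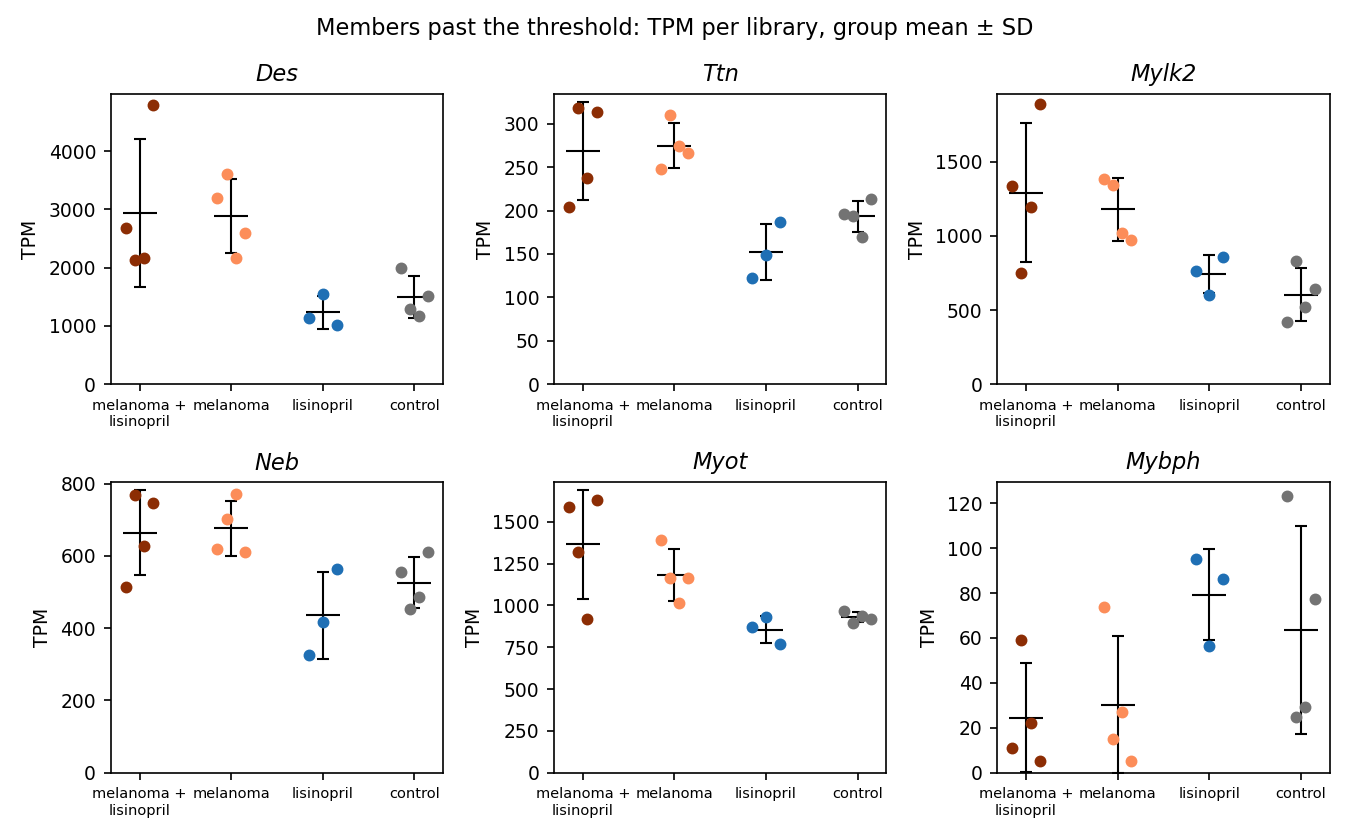
TPM per library for the 6 genes past the threshold in the average tumour effect, by group (4, 4, 3 and 4 muscles); the horizontal bar is the mean and the whiskers are 1 SD, cut at 0 for Mybph. Desmin lies at 2128 TPM or above in every tumour-bearing muscle and at 1988 TPM or below in every tumour-free muscle, while the other 5 genes overlap.

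The promoters of Des, Ttn and Mybph, the called genes with a RefSeq entry, are printed to compare their start sites. Of the 38 genes, 27 matched a RefSeq promoter table (GRCm38.p6, the assembly that mm10 stands for), with 32 windows of 250 bases before and 50 after a transcription start. 6 short motifs known from muscle promoters were searched on both strands: the TATA box (TATAAA), the E-box bound by MyoD and its relatives (CAGCTG), the M-CAT element (CATTCC), the MEF3 site (TCAGGTT), and, by name, the MEF2 site and the CArG box. Below, capitals mark the matches as they read on the printed strand, and positions are counted from the start site, with -1 the last base before it and 1 the first base transcribed. The Des window (chr1:75360042-75360341 on the plus strand) holds an E-box at -36 to -31. The Ttn window (chr2:76982498-76982797 on the minus strand) holds a MEF2 match at -166 to -157 and an M-CAT at 12 to 17. The Mybph window (chr1:134193198-134193497 on the plus strand) holds an E-box at -79 to -74, next to an M-CAT at -73 to -68. It also holds the letters of a TATA box on the opposite strand (printed TTTATA) at -39 to -34. No motif of the 6 was found in all of the Des, Ttn and Mybph windows.
Des: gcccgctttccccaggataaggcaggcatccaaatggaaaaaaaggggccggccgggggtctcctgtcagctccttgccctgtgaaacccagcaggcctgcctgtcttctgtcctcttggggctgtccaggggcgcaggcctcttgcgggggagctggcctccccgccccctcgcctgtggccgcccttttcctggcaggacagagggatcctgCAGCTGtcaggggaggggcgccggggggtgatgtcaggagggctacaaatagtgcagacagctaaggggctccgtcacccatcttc
Ttn: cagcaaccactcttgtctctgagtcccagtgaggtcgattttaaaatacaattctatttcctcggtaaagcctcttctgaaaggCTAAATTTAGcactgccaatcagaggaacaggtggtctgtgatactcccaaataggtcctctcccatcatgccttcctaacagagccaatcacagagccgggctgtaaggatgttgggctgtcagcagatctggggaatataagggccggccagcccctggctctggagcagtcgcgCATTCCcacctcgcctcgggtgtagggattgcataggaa
Mybph: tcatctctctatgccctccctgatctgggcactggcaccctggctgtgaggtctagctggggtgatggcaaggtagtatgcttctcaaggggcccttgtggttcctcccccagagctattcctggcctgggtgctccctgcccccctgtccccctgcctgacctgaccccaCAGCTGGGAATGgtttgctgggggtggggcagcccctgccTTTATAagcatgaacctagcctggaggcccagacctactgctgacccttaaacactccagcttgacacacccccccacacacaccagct
Among the 32 windows an E-box was found in 14 (43.8%, against 16.3% of all 32851 windows), an M-CAT in 9 (28.1%, against 14.7%), a CArG box in 5 (15.6%, against 1.6%), a TATA box in 6 (18.8%, against 13.6%), a MEF2 site in 3 (9.4%, against 3.2%) and MEF3 in 2 (6.2%, against 4.1%). These are matches of letters and carry no measure of binding.

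The fast parts of the thin filament switch were abundant, and Tnnt3 and Tnni2 varied little. Tnnt3, fast troponin T, was at 13572 to 19856 TPM (median 16274) in tumour-bearing muscles and 11271 to 17763 TPM (median 15562) in tumour-free ones, and Tnni2, fast troponin I, at 6271 to 8475 TPM (median 7509) in tumour-bearing muscles and 5697 to 7453 TPM (median 6781) in tumour-free ones. Their log2 fold changes of 0.16 ± 0.13 and 0.16 ± 0.10 did not pass and turned below 0 with median-ratio rescaling. Tnnc2, fast troponin C, had the opposite sign (log2 fold change -0.36 ± 0.17, adjusted p = 0.131), as had Tpm1, the alpha-tropomyosin of fast fibres (log2 fold change -0.47 ± 0.21, adjusted p = 0.120), and Tpm2, the beta-tropomyosin of both fibre types (log2 fold change -0.26 ± 0.15, adjusted p = 0.220). Tnnc2 was at 5353 to 12977 TPM (median 10521) in tumour-bearing muscles and 10027 to 15296 TPM (median 13883) in tumour-free ones. Its lowest value and that of Tpm1 (1153 TPM) were both in melanoma 2, where Tnnt3 and Tnni2 were not low (15912 and 8183 TPM). The 3 fast troponins therefore had different orders of libraries.

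Their slow partners were found at far lower levels and varied widely. Tnnc1, the troponin C of slow and cardiac muscle, had 5.25, 14.5, 4.60 and 113 TPM in the melanoma plus lisinopril muscles and 3.99, 8.66, 8.13 and 24.8 TPM in the melanoma muscles, against 1.32, 9.90 and 0.309 TPM in the lisinopril muscles and 16.8, 9.45, 6.67 and 5.99 TPM in the control muscles. Melanoma plus lisinopril 4 stood high, melanoma 4 followed, and lisinopril 1 and 3 were the lowest. Its change of 1.17 ± 0.63 did not pass (adjusted p = 0.181). Tnnt1, slow troponin T, had 4.79, 10.8, 4.23 and 78.4 TPM in the melanoma plus lisinopril muscles and 5.08, 5.25, 12.6 and 14.4 TPM in the melanoma muscles, against 1.54, 11.8 and 1.57 TPM in the lisinopril muscles and 32.9, 13.7, 11.7 and 11.1 TPM in the control muscles. Melanoma plus lisinopril 4 was again highest, but control 1 came next, and the change was small against its error (log2 fold change 0.38 ± 0.55, adjusted p = 0.640). Tnni1, slow troponin I, had 2.93, 4.36, 4.45 and 26.7 TPM in the melanoma plus lisinopril muscles and 2.99, 2.41, 13.8 and 6.57 TPM in the melanoma muscles, against 0.890, 18.6 and 0.469 TPM in the lisinopril muscles and 28.8, 15.3, 8.86 and 9.58 TPM in the control muscles. Here control 1 was highest and lisinopril 2 followed melanoma plus lisinopril 4, so the order of libraries differed from that of Tnnc1 (log2 fold change -0.14 ± 0.58, adjusted p = 0.877). Tpm3, the slow tropomyosin, had 15.4, 21.5, 4.37 and 42.1 TPM in the melanoma plus lisinopril muscles and 13.6, 23.3, 8.26 and 21.8 TPM in the melanoma muscles, against 3.42, 7.45 and 2.69 TPM in the lisinopril muscles and 13.2, 22.4, 4.85 and 6.70 TPM in the control muscles. Its change came nearest to the threshold among the 4 (log2 fold change 1.15 ± 0.42, adjusted p = 0.0627). It passed without control 2, without melanoma plus lisinopril 3, and without control 2 and melanoma 2 together. Reads of Tpm3 may be split with the near-identical Tpm3-rs7, which was listed at 0.180, 0.0816, 0.148, 0.0676 and 0.0579 TPM in 5 tumour-bearing muscles and between 8.68 and 32.7 TPM in the other 10, so its level is uncertain. Tpm3 and Tpm3-rs7 together came to 13.7 to 67.4 TPM (median 21.7) in tumour-bearing muscles and 14.0 to 55.1 TPM (median 18.0) in tumour-free ones. Tpm1 and Tpm3 also make forms outside the sarcomere, which a gene total does not separate.

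The share of the slow form in a pair, slow over slow plus fast TPM, was below 1% in every library for the 3 troponins and for Myl2 with Mylpf. The slow share of troponin C (Tnnc1 with Tnnc2) was 0.0307% to 0.887% (median 0.110%) in tumour-bearing muscles and 0.00202% to 0.140% (median 0.0641%) in tumour-free ones. For troponin T (Tnnt1 with Tnnt3) it was 0.0256% to 0.399% (median 0.0529%) in tumour-bearing muscles and 0.00909% to 0.211% (median 0.0858%) in tumour-free ones. For troponin I (Tnni1 with Tnni2) it was 0.0295% to 0.318% (median 0.0657%) in tumour-bearing muscles and 0.00668% to 0.478% (median 0.155%) in tumour-free ones. Among the regulatory light chains (Myl2 with Mylpf) the slow share was 0.00146% to 0.809% (median 0.00818%) in tumour-bearing muscles and 0.00225% to 0.0366% (median 0.00527%) in tumour-free ones. Among the essential light chains (Myl3 with Myl1) it was 0.0440% to 1.32% (median 0.375%) in tumour-bearing muscles and 0.0334% to 0.513% (median 0.167%) in tumour-free ones. Lisinopril 3 had the lowest share in 4 of these 5 pairs and melanoma plus lisinopril 4 the highest in 4 of 5. All 5 ranges overlapped between tumour-bearing and tumour-free muscles, and the shares were not tested.

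**Figure D3:**
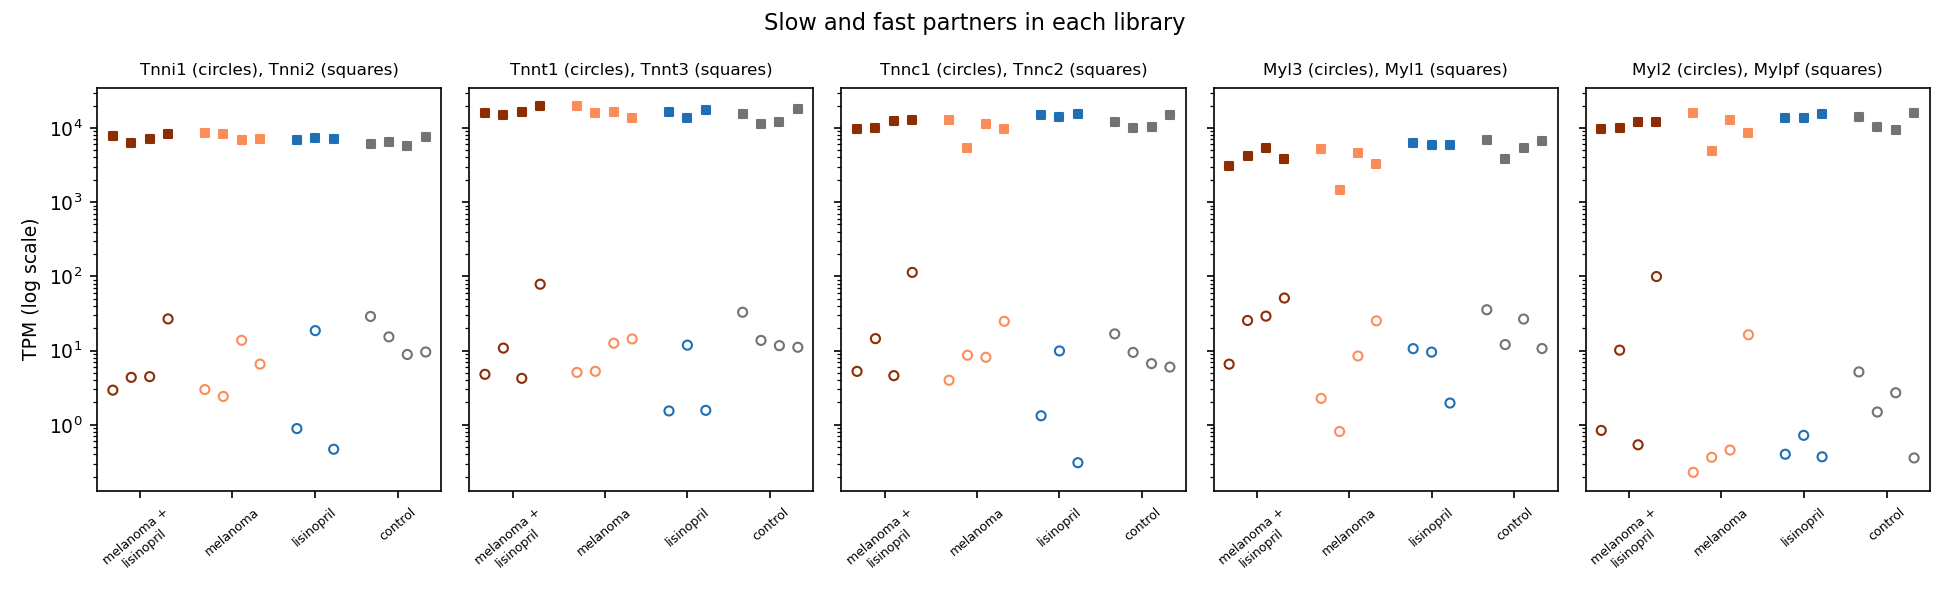
TPM per library on a log axis for 5 pairs of slow (open circles) and fast (filled squares) partners, in the 4 groups. The fast partners lie between 1462 and 19856 TPM and the slow ones between 0.229 and 113 TPM, and melanoma plus lisinopril 4 holds the highest slow value in 4 of the 5 pairs.

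The start sites of a slow and fast pair are set side by side for troponin C and for the essential light chain. Tnnc1 (chr14:31208062-31208361 on the plus strand) holds an M-CAT at -58 to -53, while Tnnc2 (chr2:164779685-164779984 on the minus strand) holds none of the 6 motifs in this window. Myl3 (chr9:110763428-110763727 on the plus strand) holds M-CAT matches at -177 to -172 and -149 to -144 and a CArG box at -85 to -76. Myl1 (chr1:66945007-66945306 on the minus strand) holds an E-box at -224 to -219 and an M-CAT at -80 to -75. It also holds the letters of a TATA box on the opposite strand (printed TTTATA) at -95 to -90. Capitals mark these matches.
Tnnc1: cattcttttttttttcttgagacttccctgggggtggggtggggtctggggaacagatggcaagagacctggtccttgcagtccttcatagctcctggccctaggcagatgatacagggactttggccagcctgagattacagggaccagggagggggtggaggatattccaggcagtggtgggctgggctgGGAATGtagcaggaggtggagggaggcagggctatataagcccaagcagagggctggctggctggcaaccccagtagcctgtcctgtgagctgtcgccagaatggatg
Tnnc2: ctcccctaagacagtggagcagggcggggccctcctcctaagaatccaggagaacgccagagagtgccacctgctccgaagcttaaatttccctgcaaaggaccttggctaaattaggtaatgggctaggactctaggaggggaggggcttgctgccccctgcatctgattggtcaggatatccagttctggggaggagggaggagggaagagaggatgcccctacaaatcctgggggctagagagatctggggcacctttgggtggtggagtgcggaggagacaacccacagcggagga
Myl3: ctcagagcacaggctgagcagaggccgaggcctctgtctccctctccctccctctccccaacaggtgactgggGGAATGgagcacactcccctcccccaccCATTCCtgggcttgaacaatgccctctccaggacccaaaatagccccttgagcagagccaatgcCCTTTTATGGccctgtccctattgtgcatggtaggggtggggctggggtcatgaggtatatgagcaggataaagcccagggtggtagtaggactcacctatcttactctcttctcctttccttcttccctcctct
Myl1: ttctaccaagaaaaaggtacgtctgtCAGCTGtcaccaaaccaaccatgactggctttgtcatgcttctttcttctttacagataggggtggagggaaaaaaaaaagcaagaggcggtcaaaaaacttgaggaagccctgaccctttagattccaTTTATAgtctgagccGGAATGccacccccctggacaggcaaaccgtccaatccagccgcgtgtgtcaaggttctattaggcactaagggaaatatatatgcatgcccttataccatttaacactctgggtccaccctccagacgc
An M-CAT is the 1 motif of the 6 that Tnnc1, Myl3 and Myl1 have in common here.

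On the thick filament, Mylpf, the fast regulatory light chain, was at 4842 to 15654 TPM (median 10948) in tumour-bearing muscles and 9309.7 to 15889.5 TPM (median 13701) in tumour-free ones, and its change did not pass (log2 fold change -0.37 ± 0.21, adjusted p = 0.219). Myl1, the fast essential light chain, was lower in tumour-bearing muscles but short of the threshold (log2 fold change -0.67 ± 0.24, adjusted p = 0.0610). It had 3058, 4168, 5402 and 3821 TPM in the melanoma plus lisinopril muscles and 5155, 1462, 4640.4 and 3274 TPM in the melanoma muscles, against 6363, 5887 and 5875 TPM in the lisinopril muscles and 6887, 3806, 5309 and 6762 TPM in the control muscles. Melanoma 2 was far below the others, and 3 tumour-bearing muscles lay below the lowest tumour-free one. Myl1 passed the threshold with median-ratio rescaling (-0.88, adjusted p = 0.0413), without the mitochondrial genome (-0.81, adjusted p = 0.0465), without control 2 (-0.76, adjusted p = 0.0279) and without melanoma 1 (-0.78, adjusted p = 0.0423). Mybpc2, fast myosin binding protein C, leaned the other way (log2 fold change 0.45 ± 0.26, adjusted p = 0.210), at 1192 to 4068 TPM (median 2575) in tumour-bearing muscles and 998 to 3091 TPM (median 1770.3) in tumour-free ones. Smyd1, a methyltransferase that myosin assembly in muscle requires, was at 85.1 to 194 TPM (median 168) in tumour-bearing muscles and 133 to 239 TPM (median 216) in tumour-free ones (log2 fold change -0.37 ± 0.18, adjusted p = 0.135).

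The slow light chains varied widely. Myl2, the regulatory light chain of slow and ventricular muscle, had 0.841, 10.1, 0.538 and 99.5 TPM in the melanoma plus lisinopril muscles and 0.229, 0.365, 0.457 and 16.3 TPM in the melanoma muscles, against 0.401, 0.722 and 0.371 TPM in the lisinopril muscles and 5.16, 1.49, 2.70 and 0.358 TPM in the control muscles. Most muscles were below 3 TPM, and melanoma plus lisinopril 4, melanoma 4 and melanoma plus lisinopril 2 stood above all tumour-free muscles (log2 fold change 1.06 ± 0.82, adjusted p = 0.354). The slow myosin heavy chain Myh7, which is not among the 38, was highest in the same 3 libraries, at 59.3, 12.4 and 6.25 TPM, against at most 1.47 TPM in the other 12. Myl3, the essential light chain of slow and ventricular muscle, had 6.56, 25.5, 29.1 and 51.1 TPM in the melanoma plus lisinopril muscles and 2.27, 0.813, 8.46 and 25.2 TPM in the melanoma muscles, against 10.6, 9.55 and 1.96 TPM in the lisinopril muscles and 35.5, 12.1, 26.6 and 10.7 TPM in the control muscles. Its values were high in 3 of 4 melanoma plus lisinopril muscles and low in 2 of 4 melanoma muscles, and the average change was near 0 (log2 fold change 0.03 ± 0.57, adjusted p = 0.978). Mybpc1, the myosin binding protein C named for slow muscle, was abundant, at 1312 to 2637 TPM (median 1878) in tumour-bearing muscles and 1366 to 1878 TPM (median 1485) in tumour-free ones, and its share of both forms (Mybpc1 with Mybpc2) was 30.2% to 52.4% (median 44.4%) in tumour-bearing muscles and 30.6% to 64.0% (median 45.5%) in tumour-free ones. It did not pass (log2 fold change 0.25 ± 0.13, adjusted p = 0.172).

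For a summary by fibre type, 11 genes were listed as fast (Tnnt3, Tnni2, Tnnc2, Mylpf, Myl1, Mylk2, Actn3, Mybpc2, Myoz1, Myoz3 and Tmod4) and 9 as slow (Tnnt1, Tnni1, Tnnc1, Tpm3, Myl2, Myl3, Mybpc1, Myoz2 and Csrp3), while Tpm1 and Myom2 were in neither list. Among the 11 fast isoforms 1 rose (Mylk2), with a median log2 fold change of 0.16. Among the 9 slow isoforms 0 passed (background 18.0%), with a median of 0.69, beside 0.17 over all genes. The slow median differed between the arms. It was 0.047 in melanoma against control (5 positive, 4 negative, all genes 0.10). In melanoma plus lisinopril against lisinopril it was 1.57 (9 positive, all genes 0.23). In lisinopril against control it was -1.10 (9 negative, all genes -0.18). The last 2 medians share the lisinopril libraries. Of these, lisinopril 1 and 3 were low in Tnnt1 (1.54 and 1.57 TPM) and lisinopril 2 was not (11.8 TPM). Melanoma plus lisinopril 4 was the highest in that gene (78.4 TPM). The 9 genes share their libraries and are not replicates, and the interaction called 0 of them. The median of the fast isoforms turned to -0.052 with median-ratio rescaling, and that of the slow isoforms stayed above 0, at 0.49. Within groups the slow isoforms spread far more, with a median residual SD of 1.25 on the log2 scale for slow isoforms and 0.45 for fast ones, and 0.29 over all genes. Summed TPM of the fast isoforms were 42858 to 78494 TPM (median 60899) in tumour-bearing muscles and 47853 to 72847 TPM (median 62065) in tumour-free ones. Summed TPM of the slow isoforms, most of it Mybpc1, were 1726 to 3290.2 TPM (median 2295) in tumour-bearing muscles and 1390.3 to 2203 TPM (median 1678) in tumour-free ones. Csrp3 added 990.3 TPM in melanoma 2 and 777 TPM in melanoma plus lisinopril 2. The sum thus mainly follows Mybpc1 and Csrp3, and not the slow troponins and light chains.

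Of 6 genes for the length and growth of the thin filament, nebulin alone passed (background 18.0%). Acta1, skeletal alpha-actin and the most abundant of the 38 genes in every library but melanoma 2 (where Tnnt3 was), was at 13090.0 to 47553 TPM (median 27972) in tumour-bearing muscles and 23159 to 41449 TPM (median 31709.9) in tumour-free ones (log2 fold change -0.27 ± 0.22, adjusted p = 0.390). Close relatives such as Actc1 and Acta2 may exchange reads with it. The tropomodulins Tmod1 and Tmod4, which cap the slow-growing filament end, changed by -0.04 ± 0.13 and 0.05 ± 0.21 and did not pass (adjusted p = 0.830 and 0.881). The leiomodins Lmod2 and Lmod3, which start new actin filaments, had opposite signs. Lmod2 was at 105 to 655 TPM (median 249) in tumour-bearing muscles and 54.4 to 279 TPM (median 148) in tumour-free ones (log2 fold change 0.78 ± 0.40, adjusted p = 0.163). Lmod3 was at 69.0 to 154 TPM (median 101) in tumour-bearing muscles and 116 to 192 TPM (median 157) in tumour-free ones (log2 fold change -0.42 ± 0.17, adjusted p = 0.0790), and passed as lower under 7 alternatives, among them median-ratio rescaling, TPM without the mitochondrial genome and leaving out control 2 or melanoma 3.

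At the Z-disc 1 of 9 genes passed (myotilin), where the background was 18.0%. The alpha-actinins cross-link the thin filaments there. Actn3, the form of fast fibres, was at 2541 to 6717 TPM (median 4769) in tumour-bearing muscles and 1665 to 4838 TPM (median 3113) in tumour-free ones (log2 fold change 0.50 ± 0.23, adjusted p = 0.118), and Actn2, found in all fibres, at 469.6 to 1189 TPM (median 795) in tumour-bearing muscles and 430.2 to 1099 TPM (median 699) in tumour-free ones (log2 fold change 0.26 ± 0.22, adjusted p = 0.404). The myozenins bind alpha-actinin and the phosphatase calcineurin. Myoz1, of fast fibres, was higher in tumour-bearing muscles but short of the threshold (log2 fold change 0.42 ± 0.15, adjusted p = 0.0614), with 7 of 8 above every tumour-free muscle. It passed without control 2, without melanoma 2, and without both. Myoz2, of slow and cardiac muscle, changed by 0.69 ± 0.43 (adjusted p = 0.244). Myoz3, of fast fibres, had 23.9, 57.3, 71.6 and 53.3 TPM in the melanoma plus lisinopril muscles and 51.8, 1.58, 64.7 and 70.4 TPM in the melanoma muscles, against 80.8, 77.6 and 97.3 TPM in the lisinopril muscles and 97.9, 44.3, 66.3 and 126 TPM in the control muscles. Melanoma 2 was near 0 and melanoma plus lisinopril 1 was the next lowest, and the change did not pass (log2 fold change -1.14 ± 0.59, adjusted p = 0.166). Ldb3, a PDZ and LIM domain protein that holds alpha-actinin in place, was at 244 to 569 TPM (median 409.8) in tumour-bearing muscles and 323 to 652 TPM (median 573) in tumour-free ones (log2 fold change -0.38 ± 0.19, adjusted p = 0.146). Tcap, which ties titin ends together, barely differed (log2 fold change -0.04 ± 0.15, adjusted p = 0.861).

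Csrp3, the muscle LIM protein, had the widest range among Z-disc genes, as the ratio of highest to lowest. It had 149, 777, 15.4 and 129 TPM in the melanoma plus lisinopril muscles and 40.7, 990.3, 68.5 and 72.1 TPM in the melanoma muscles, against 77.2, 105 and 11.2 TPM in the lisinopril muscles and 133, 30.7, 118 and 67.5 TPM in the control muscles. Melanoma 2 and melanoma plus lisinopril 2 stood far above the rest, and lisinopril 3 and melanoma plus lisinopril 3 were the lowest. The average change was 1.04 ± 0.82 (adjusted p = 0.363).

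At the M-band, where myomesins tie the thick filaments together, 0 of 3 genes passed (background 18.0%). Myom1, present in all striated fibres, was at 528 to 665 TPM (median 569.6) in tumour-bearing muscles and 413 to 589.9 TPM (median 473) in tumour-free ones (log2 fold change 0.28 ± 0.10, adjusted p = 0.0550), and Myom2, of fast fibres, at 418 to 649 TPM (median 503) in tumour-bearing muscles and 334 to 527 TPM (median 413) in tumour-free ones (log2 fold change 0.30 ± 0.12, adjusted p = 0.0830). Myom3 ranged from 1.12 TPM in lisinopril 3 to 34.6 TPM in melanoma plus lisinopril 2, and its change was 0.17 ± 0.52. Myom1 passed with the stricter filter, without lisinopril 3 or melanoma 2, and without control 2 and melanoma 2 together.

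**Figure D4:**
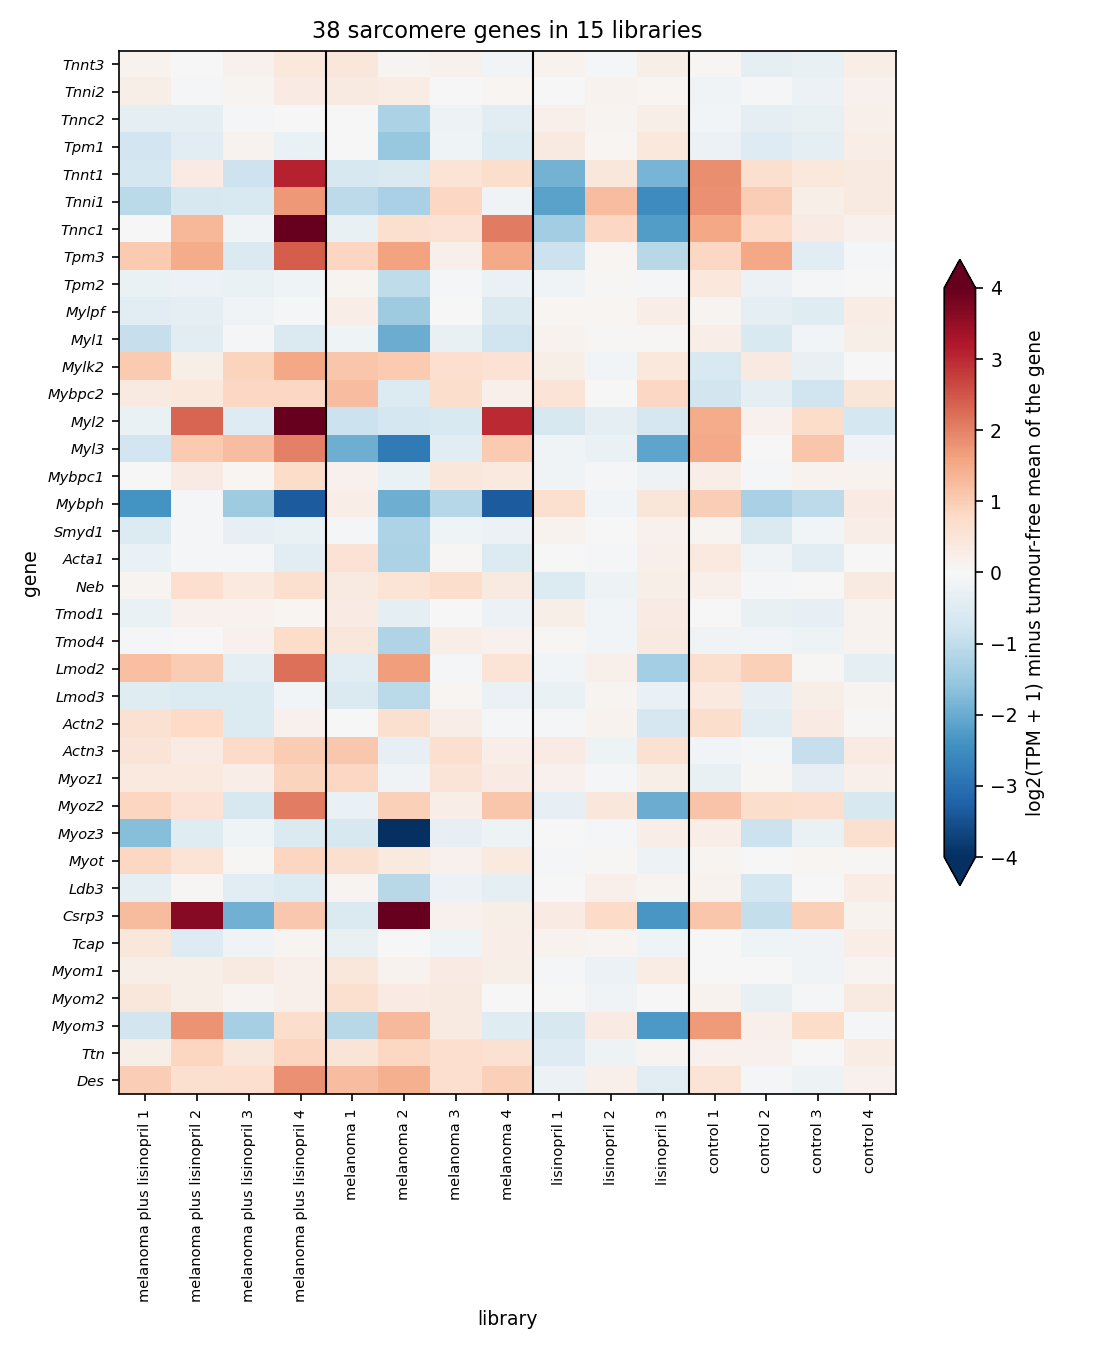
Log2(TPM + 1) of the 38 genes in the 15 libraries, each minus the mean of that gene in the 7 tumour-free libraries, in red where higher and blue where lower; black lines separate the groups, and 3 cells lie beyond the colour limit of 4. The 3 cells are Myl2 and Tnnc1 in melanoma plus lisinopril 4 and Myoz3 in melanoma 2, and melanoma 2 and melanoma plus lisinopril 4 differ from the other libraries of their groups.

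Melanoma 2 differed from the other melanoma muscles in some sarcomere genes and not in others. Relative to the other 3 melanoma muscles, on the log2 scale, it was low in, among others, Myoz3 (-4.60), Myl3 (-2.36), Myl1 (-1.55), Tmod4 (-1.48), Mylpf (-1.31), Acta1 (-1.30), Tpm1 (-1.27), Mybpc2 (-1.26), Myl2 (-1.20), Tnni1 (-1.16), Smyd1 (-1.08) and Tnnc2 (-1.06), and little different in Tnnt3 (-0.051), Tnni2 (0.15), Neb (0.082), Myot (-0.017) and Ttn (0.24). It was high in Csrp3 (4.06), Myom3 (1.71) and Lmod2 (1.66). The median over all genes was 0.16. With melanoma 2 and control 2 both left out, 15 of the 38 genes passed in the average tumour effect (39.5%, against 31.2% of all genes), 9 higher and 6 lower. When the values were also rescaled by median ratios, 13 passed (34.2%, against 30.9%), 3 higher and 10 lower. The count was 11 without control 2 alone (28.9%, against 33.5%) and 3 without lisinopril 1 (7.89%, against 6.24%), so it moved with that over all genes.

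Melanoma against control, the tumour effect without the drug, called 0 of the 38 genes in either direction (background 0.646%, or 77 genes, with 0.461% higher and 0.185% lower), with 9 of 38 at an unadjusted p below 0.05 (23.7%, against 18.5% of all genes). The values of 6 genes did not overlap, all of them higher with melanoma (15.8%, background 8.21%, of which 5.33% higher and 2.89% lower): Mylk2, Neb, Myot, Myom1, Ttn and Des. Mylk2 came nearest to the threshold (log2 fold change 0.99 ± 0.26, adjusted p = 0.0933), followed by Des (log2 fold change 0.96 ± 0.26, adjusted p = 0.0986) and Ttn (log2 fold change 0.50 ± 0.17, adjusted p = 0.153). Myl3 had the most negative value among the 9, -1.68 ± 0.77 (adjusted p = 0.262).

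Melanoma plus lisinopril against lisinopril, the tumour effect with the drug, called 1 of the 38 genes (background 1.48%, of which 1.34% higher), titin (log2 fold change 0.81 ± 0.18, adjusted p = 0.0447). Des was just short (log2 fold change 1.19 ± 0.28, adjusted p = 0.0505), and 10 of 38 were at an unadjusted p below 0.05 (26.3%, against 23.3% of all genes). Titin lost the call under 16 of 25 alternatives, and without lisinopril 1 its change was 0.66 (adjusted p = 0.229). The values of 12 genes did not overlap (31.6%, background 33.4%, of which 29.0% higher and 4.41% lower). Of these Mybpc1, Myoz1, Myom2, Ttn and Des were higher with melanoma plus lisinopril, and Tnnc2, Tpm2, Mylpf, Myl1, Smyd1, Acta1 and Myoz3 were lower. Among the slow genes Tnnc1 changed by 2.30 ± 0.92 (adjusted p = 0.168), Myl2 by 2.33 ± 1.20 (adjusted p = 0.248) and Tpm3 by 1.73 ± 0.61 (adjusted p = 0.138), and none of them passed. The level of Tpm3 is uncertain because reads may be split with Tpm3-rs7. That gene had 0.180, 0.0816, 16.3 and 25.3 TPM in the melanoma plus lisinopril muscles and 15.4, 8.90 and 11.3 TPM in the lisinopril muscles.

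The drug was compared within each tumour status. Melanoma plus lisinopril against melanoma called 0 of the 38 genes and 0 of all genes (background 0%), with 1 of 38 at an unadjusted p below 0.05 (189 genes, 1.59%, overall). That 1 gene was Myl3, at 1.94 ± 0.77 (unadjusted p = 0.0239 by limma). For the genes called in the average tumour effect the 95% intervals of the drug difference in tumour-bearing mice were -0.59 to 0.52 for Des, -0.41 to 0.31 for Ttn, -0.49 to 0.63 for Mylk2, -0.42 to 0.35 for Neb, -0.18 to 0.54 for Myot and -1.87 to 1.36 for Mybph, so a drug difference as large as the average tumour effect and opposite to it lies outside all 6 intervals. One of the same direction lies outside the intervals of Des, Ttn, Mylk2 and Neb and inside those of Myot and Mybph. The average tumour effect itself includes the melanoma plus lisinopril group. A drug difference that would cancel melanoma against control lies inside the intervals of Neb (0.36 in that comparison) and Mybph (-1.29). For Des, Ttn, Mylk2 and Myot it lies outside. A full reversal is therefore not excluded for Neb and Mybph. Lisinopril against control also called 0 of 38 and 0 of all genes (background 0%), with 3 of 38 (461 genes, 3.87%, overall) at an unadjusted p below 0.05. These were Tnnt1 (-1.93 ± 0.81), Tnni1 (-1.99 ± 0.84) and Mybpc2 (0.82 ± 0.37). Myl3 and Mybpc1 were lower in all 3 lisinopril muscles than in all 4 controls (5.26%, background 4.34%, of which 4.13% lower). Each of these 4 comparisons shares a group with 2 of the others.

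The interaction asks whether the tumour effect differed with the drug. It called 0 of the 38 genes and 0 of all genes (background 0%), with 2 of 38 at an unadjusted p below 0.05 (151 genes, 1.27%, overall). These were Myl3, at 3.41 ± 1.13 (adjusted p = 1), and Tnnt1, at 2.39 ± 1.11 (adjusted p = 1). Their tumour effects were 1.73 ± 0.83 with the drug and -1.68 ± 0.77 without it for Myl3, and 1.57 ± 0.81 with it and -0.82 ± 0.75 without it for Tnnt1. For desmin the tumour effects were 1.19 ± 0.28 with the drug and 0.96 ± 0.26 without it, and the interaction was 0.23 ± 0.38.

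Other genes of the sarcomere and of fibre type were taken from lists. Of 13 cardiac and developmental isoforms 9 passed the filter, 2 rose and 1 fell, beside 14.5% higher and 3.45% lower over all genes. Cardiac alpha-actin, Actc1, which developing muscle also makes, fell (log2 fold change -3.14 ± 0.55, adjusted p = 0.00385), and 7 of 8 tumour-bearing muscles lay below every tumour-free one, the lowest of which had 108 TPM. Ankrd1, a stress-induced ankyrin repeat protein of the I-band (log2 fold change 1.34 ± 0.44, adjusted p = 0.0486), and Nrap, a nebulin relative at attachment sites (log2 fold change 0.53 ± 0.17, adjusted p = 0.0460), rose. Of 24 alternatives, Ankrd1 lost its call under 17 and Nrap under 16, with adjusted p up to 0.115 and 0.351, while Actc1 kept its call in all 24. The other isoforms of early muscle followed for this panel did not pass, with log2 fold change -0.16 ± 0.41, adjusted p = 0.797 for Tnnt2 and log2 fold change -0.70 ± 0.62, adjusted p = 0.414 for Myl4. Control 1 had the highest value of each of Actc1 (741 TPM), Tnnt2 (12.5 TPM), Myl4 (39.3 TPM) and Tnni1.

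Of 4 adult myosin heavy chains 0 passed, with Myh4 of the fastest fibres at 0.62 ± 0.23 (adjusted p = 0.0691) and Myh7 of slow fibres at 1.42 ± 0.71 (adjusted p = 0.156). Of 33 other sarcomere and Z-disc proteins 8 rose and 1 fell (background 14.5% higher and 3.45% lower), with a median log2 fold change of 0.26, beside 0.17 over all genes. Among those called, the largest changes were in Xirp1, an actin-binding repair protein (log2 fold change 1.72 ± 0.47, adjusted p = 0.0265), Flnc, muscle filamin (log2 fold change 1.50 ± 0.41, adjusted p = 0.0263), Trim63, a ubiquitin ligase of the M-band (log2 fold change 1.47 ± 0.43, adjusted p = 0.0343), and Pdlim5, a Z-disc adaptor (log2 fold change 0.97 ± 0.17, adjusted p = 0.00403). Melanoma plus lisinopril 2 and melanoma 2, the 2 libraries with the highest Csrp3, also had the highest Flnc, at 1890.3 and 1117 TPM, against at most 651 TPM in the other 13. Of 26 fibre type regulators that passed the filter 7 rose and 1 fell (background 14.5% higher and 3.45% lower), with a median of 0.23, beside 0.17 over all genes. Mkl1, a coactivator of serum response factor, fell (log2 fold change -0.88 ± 0.22, adjusted p = 0.0208), and Vgll2, a TEAD cofactor (log2 fold change 0.85 ± 0.27, adjusted p = 0.0409), and Eya1 and Eya4, transcriptional coactivators (log2 fold change 0.62 ± 0.13, adjusted p = 0.0100 for Eya1 and log2 fold change 0.58 ± 0.17, adjusted p = 0.0312 for Eya4), rose. Both lists depended on the scaling. With median-ratio rescaling 6 of the 33 other sarcomere and Z-disc proteins rose and 4 fell (median 0.049). Of the 26 fibre type regulators 2 rose and 1 fell (median 0.038). Pdlim5, Mkl1 and Eya1 were called under all 24 alternatives. Flnc lost its call under 5, Xirp1 under 6, Trim63 under 8, Eya4 under 10 and Vgll2 under 16 of them, each without lisinopril 1 and without control 3 among others, with adjusted p up to 0.0669 for Flnc, 0.0679 for Xirp1, 0.0766 for Trim63, 0.0926 for Eya4 and 0.107 for Vgll2.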

How the data were processed

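mRNA of tibialis anterior was sequenced as 15 libraries called biological replicates (TruSeq stranded mRNA, NovaSeq, per the labels' protocols). A protocol line that names another tumour model was not used for timing. The authors deposited 1 table of TPM, made on genome build mm10 according to the submitters' processing notes, while how reads were aligned and counted was not given in the sources used here. TPM keeps no depth, so no counting interval was computed. The p-values set differences between group means against the spread of samples within groups.

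The 38 members and all gene lists were chosen with earlier results of these data known. Genes with at least 1 TPM in at least 3 libraries (11923 of 21659 with any value) entered limma 3.58.1 (R 4.3.3) as log2(TPM + 1), with 4 group means, eBayes with trend, 11 residual and 3.80 prior degrees of freedom, two-sided tests, Benjamini-Hochberg adjustment over all genes within each of 6 contrasts, threshold 0.05. Errors of fold changes are standard errors. Scripts were tested on simulated data.

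All members were eligible for naming, as were up to 4 called genes of each other list with the largest change, and Actc1, Tnnt2, Myl4, Myh4 and Myh7. Others (Tagln, Tpm3-rs7) were chosen after their values were seen. The choices varied were the pseudocount (0.1), the filter (none, or a mean of 5 TPM or more, called stricter), the scaling (median ratios, TPM without the mitochondrial genome or that without members and myosins in the total), the replicate number as a block, only the groups compared, each library left out, and control 2 and melanoma 2 left out. The last combined with rescaling was added after seeing the data. Promoter windows came from RefSeq and positions from the GENCODE annotation of mm10. Figures were drawn with matplotlib 3.10.9.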

Additional observations from a re-analysis of the deposited data

Results flagged for a closer look

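In groups of 4 muscles, a library was listed when its gap to the nearest other, divided by the range of the group, exceeded Dixon's critical value. Of 114 combinations of a gene and a group, 10 met this (8.77%), where independent values with a normal spread would give about 5%. The TPM were not transformed for this, and the genes share their libraries, so these percentages are not a test. Melanoma plus lisinopril 4 was listed in 6 of them. It stood high in Tnnt1 (78.4 TPM), Tnni1 (26.7 TPM), Tnnc1 (113 TPM) and Myl2 (99.5 TPM), all of the slow set, and in Lmod3 (136.0 TPM) and Myoz1 (3823 TPM). Melanoma 4 was high in Myl2 (16.3 TPM), where the other 3 melanoma muscles had at most 0.457 TPM. Control 1 was high in Tnnt1 (32.9 TPM). Melanoma 2 was high in Csrp3 (990.3 TPM), and melanoma plus lisinopril 3 in Myom1 (622 TPM). The lisinopril group, with 3 muscles, was not examined in this way.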

How the results depend on the processing

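No called result turned its direction under any alternative run. In the average tumour effect the 6 calls among the 38 genes became 15 without control 2 and melanoma 2, 13 with median-ratio rescaling added to that, and 3 to 11 with single libraries left out (fewest without lisinopril 1, most without control 2). The count over all genes, 2141, was 1337 with no filter, 3669 without control 2 and melanoma 2, 3631 with rescaling added to that, and 743 (without lisinopril 1) to 3953 (without control 2) with single libraries left out. The higher share of all calls was 80.8%, against 46.4% with median-ratio rescaling and 59.7% without the mitochondrial genome. For melanoma against control the 0 calls among the 38 became 1 with control 2 and melanoma 2 left out and rescaling, and 0 to 1 with single libraries left out (1 without control 2 or melanoma plus lisinopril 4). Over all genes the 77 calls became 5 with only the groups compared, 30 with the stricter filter, 40 with no filter, 165 with median-ratio rescaling, 137 without the mitochondrial genome, 137 also without members and myosins in the total, 120 with the replicate block, 256 without control 2 and melanoma 2, 621 with rescaling added to that, and 17 (without control 3) to 586 (without control 2) with single libraries left out. For melanoma plus lisinopril against lisinopril the 1 call among the 38 became 2 with a pseudocount of 0.1, 2 with the stricter filter, 0 with no filter, 0 with median-ratio rescaling, 0 without the mitochondrial genome, members and myosins in the total, 2 with the replicate block, 4 without control 2 and melanoma 2, 11 with rescaling added to that (2 higher, 9 lower), and 0 to 4 with single libraries left out (most without melanoma plus lisinopril 3). Over all genes the 177 calls became 876 with only the groups compared, 14 with no filter, 356 with the replicate block, 1918 without control 2 and melanoma 2, 1919 with rescaling added to that, and 5 (without lisinopril 1) to 685 (without melanoma 2) with single libraries left out. The higher share there was 90.4%, against 69.7% with median-ratio rescaling. The cause was not tested. The other 3 contrasts gave 0 calls under every setting run. Replicate numbers did not clearly pair the samples. Deviations of same-numbered libraries correlated at -0.15 to 0.36 (median 0.083, 21 pairs), and 9 pairs were above 0.1. Those of different-numbered libraries correlated at -0.42 to 0.36 (median -0.035, 63 pairs), and 16 pairs were above 0.1. In all, 4 of 15 libraries correlated best with their own number, so a weak pairing is not excluded. With the replicate block 6 of the 38 genes were called in the average tumour effect, 6 higher. Mybph was lost (adjusted p = 0.0583) and Tpm3, whose level is uncertain because of Tpm3-rs7, was gained (1.08, adjusted p = 0.0229). TPM hides depth, so low values such as those of Myl2 carry an unknown counting error.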
